A study of Mus musculus with 9 samples.

Results

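The genes described here are the 9 transcription factors *Eomes*, *Neurog1*, *Neurog2*, *Neurod1*, *Neurod2*, *Neurod4*, *Neurod6*, *Nhlh1* and *Bhlhe22*, which stand in the cascade from cortical progenitors to glutamatergic neurons. They were taken by name, not by their values, from the 17487 gene symbols listed over the 9 libraries of the series. 8 of them encode basic helix-loop-helix (bHLH) proteins, while *Eomes* (TBR2) encodes a T-box protein and belongs to the cascade by its place in the lineage only. *Eomes*, *Neurog2*, *Neurod1*, *Neurod2*, *Neurod4*, *Neurod6* and *Bhlhe22* were listed in all 9 libraries, *Nhlh1* in 8 and *Neurog1* in 4.

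Radial glia line the ventricle of the developing neocortex and give rise to intermediate progenitors, whose daughters migrate outwards and become glutamatergic neurons of the cortical layers. Proneural factors of the neurogenin family bind E-box DNA as dimers with E proteins, the class of bHLH proteins to which TCF4 belongs, and switch on bHLH factors of the NeuroD family, which act in differentiating and mature neurons. Inhibitor proteins of the ID family bind E proteins without binding DNA, and repressors of the HES and HEY families hold the cascade back in radial glia.

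The libraries were made from microdissected neocortex of mouse embryos at E18.5, 1 library for each animal, with droplet-based single-cell RNA-seq that reads the 3′ end of transcripts and counts unique molecular identifiers (UMIs). WT and KO embryos were littermates from breedings of the Tcf4ex4WT/lacZ line. In KO embryos both *Tcf4* alleles carry a lacZ/neo cassette before exon 4 in every cell of the animal. The cassette takes away the long isoforms and leaves a shorter one, and 3′ reads do not tell the isoforms apart. Of the libraries, 5 were labelled WT and 4 KO, and WT2, WT3 and WT4 were compared with KO4 and KO5. All of these were from female embryos by *Xist* and Y-linked UMIs, apart from KO5, which was male.

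In the 5 compared libraries 1184, 1617 and 6173 WT cells and 4199 and 2303 KO cells passed the limits on UMIs, genes, mitochondrial and haemoglobin RNA, with median depths of 2478, 3636 and 4359 UMIs for the former and 2290 and 2217 for the latter. Haemoglobin took over 1% of UMIs in 0.421, 1.34 and 0.564% of cells within the other limits in the 3 WT libraries and in 13.9 and 40.4% in KO4 and KO5, and these were left out. *Tcf4* was at 12.2, 12.6 and 12.2 UMIs per 10000 in WT2, WT3 and WT4 and at 9.29 and 7.59 in KO4 and KO5. The library labelled WT5 was at 7.2 and the library labelled KO1 at 16.7, both against their labels, as was the library labelled WT1 at 4.65, and WT1, KO1 and KO2 held 126, 331 and 118 cells. WT2 and WT3 were deposited as normalised values from which UMIs were recovered, and WT4, KO4 and KO5 as UMI counts, so that no KO library compared here shares its form of deposit with WT2 and WT3. WT1, the library labelled WT5, KO1 and KO2 entered only alternative fits and the values given for them by name. Between 0 and 46 cell barcodes were shared by a pair of libraries, at most 2.50% of the smaller one.

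In the GRCm38 assembly with the GENCODE vM21 annotation, *Neurog2* lies at chr3:127633135-127635631, plus strand, and *Eomes* at chr9:118478212-118486132, plus strand. *Neurog1* lies at chr13:56250478-56252163, minus strand, *Neurod1* at chr2:79452521-79456751, minus strand, and *Neurod4* at chr10:130268152-130280240, minus strand. *Neurod2* lies at chr11:98325415-98329648, minus strand, *Neurod6* at chr6:55677822-55681263, minus strand, and *Bhlhe22* at chr3:18054174-18057517, plus strand. *Nhlh1* lies at chr1:172052292-172057573, minus strand. All 9 are protein-coding genes, and *Neurog2* and *Bhlhe22*, which lie on the same chromosome, are far apart on it.

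The 250 bases before the RefSeq start are shown for 2 genes whose RNA was highest in intermediate progenitor-type cells and 2 whose RNA was highest in neurons, since factors of the neurogenin and NeuroD families bind the E-box CANNTG. Matches to it are in capitals, and all bases are written 5′ to 3′ on the strand of the gene (RefSeq, GRCm38.p6). The windows are chr9:118477939-118478188, plus strand for *Eomes*, chr3:127632886-127633135, plus strand for *Neurog2*, chr11:98329646-98329895, minus strand for *Neurod2* and chr6:55681264-55681513, minus strand for *Neurod6*.

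*Eomes*: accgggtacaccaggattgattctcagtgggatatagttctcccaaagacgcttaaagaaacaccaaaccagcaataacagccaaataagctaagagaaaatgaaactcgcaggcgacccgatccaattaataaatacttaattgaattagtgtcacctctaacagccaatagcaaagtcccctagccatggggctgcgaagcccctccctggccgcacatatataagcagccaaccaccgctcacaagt

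*Neurog2*: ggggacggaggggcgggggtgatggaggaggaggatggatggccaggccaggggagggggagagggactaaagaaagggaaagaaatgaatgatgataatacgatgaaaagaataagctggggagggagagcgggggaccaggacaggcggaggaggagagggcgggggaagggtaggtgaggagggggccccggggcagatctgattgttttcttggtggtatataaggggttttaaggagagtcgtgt

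*Neurod2*: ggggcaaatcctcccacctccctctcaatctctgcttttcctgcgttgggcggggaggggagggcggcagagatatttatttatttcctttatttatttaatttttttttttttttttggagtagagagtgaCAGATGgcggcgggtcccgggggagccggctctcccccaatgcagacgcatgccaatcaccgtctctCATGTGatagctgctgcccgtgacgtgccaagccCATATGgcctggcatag

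*Neurod6*: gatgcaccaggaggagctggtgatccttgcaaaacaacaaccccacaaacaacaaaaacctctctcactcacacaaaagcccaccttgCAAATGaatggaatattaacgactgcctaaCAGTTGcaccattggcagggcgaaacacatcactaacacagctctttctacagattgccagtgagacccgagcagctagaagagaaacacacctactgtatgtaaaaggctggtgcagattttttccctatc

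The *Neurod2* window held 3 matches, which began 118, 51 and 17 bases before the start, and the first of them was CAGATG. The *Neurod6* window held 2, at 162 and 132 bases before the start, and the *Eomes* and *Neurog2* windows held none. CANNTG reads the same on both strands, and was in 66.2% of the 32851 RefSeq windows of that length, with 3 or more matches in 12.2%; CAGATG, read on both strands, was in 14.4%. 8 of the 9 genes had a window, and 4 of their 9 windows, *Neurod4* having 2, held CANNTG. The other windows with a match were those of *Nhlh1*, at 203 bases, and *Neurod1*, at 242 bases before the start. *Neurod1* RNA was highest in IP-type cells, so the windows with a match did not follow the class of the highest level. *Bhlhe22* had no entry. A match is a description of these letters and says nothing of binding.

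Cells were placed into 6 classes along the lineage by summed UMIs of marker genes, none of which is one of the 9 genes, after thinning each cell to 1800 UMIs. The classes were radial glia and astrocyte-type cells (RG-type, from *Slc1a3*, *Aldoc*, *Fabp7*, *Pax6* and others), cycling cells without *Dlx* genes, intermediate progenitor-type cells (IP-type, from *Sstr2*, *Mfap4*, *Insm1*, *Btg2* and others), newborn neuron-type cells (*Unc5d*, *Sema3c*, *Nrp1* and others), and upper layer-type (*Cux2*, *Rorb* and others) and deep layer-type cells (*Tbr1*, *Fezf2*, *Tle4* and others). IP-type cells numbered 76, 216 and 304 in WT2, WT3 and WT4 against 107 and 61 in KO4 and KO5, which was 6.42, 13.4 and 4.92% of kept cells in WT and 2.55 and 2.65% in KO. Newborn neuron-type cells numbered 107, 319 and 706 in WT against 106 and 33 in KO, and upper layer-type cells 419, 394 and 1678 against 1688 and 899. Both KO libraries thus held a smaller share of IP-type and newborn neuron-type cells than each WT library; this was not tested, and the gates set these shares.

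The summed markers of each class were set beside those of the other classes. In RG-type, newborn neuron-type, upper layer-type and deep layer-type cells of the 3 WT libraries the genes of the class had the highest sum. Cycling cells had more RG than cycling gene UMIs in each of these libraries, at 65.9, 73.5 and 68 against 53.5, 66.6 and 48.1 in WT and 40.4 and 36.5 against 23 and 20.4 in KO, so they are called by their gate alone. In IP-type cells the 11 IP genes summed to 19.7, 18.7 and 16.4 UMIs per 10000 in WT2, WT3 and WT4, above the upper layer genes at 14.2, 7.7 and 8.05. In KO4 and KO5 the IP genes summed to 15.7 and 14.2, below the upper layer genes at 18.9 and 18.2, and the same held for the library labelled WT5 with 14.9 against 19.7. The KO cells of that gate are therefore called by the gate and not taken as a cell type, and 69.2 and 85.2% of them were exactly at the threshold, against 60.5, 48.6 and 52.6% in WT. In newborn neuron-type cells of KO5 the RG genes summed to 13.1 and the newborn neuron genes to 11.5, so there too the name stands for the gate only. The RG genes summed to 143, 213 and 145 in WT RG-type cells and to 43.4 and 39.6 in those of KO. Vascular and immune cells, which are not known to use the neuronal genes, had the 6 upper layer genes at a sum of 5.89, 5.29 and 8.21 in WT2, WT3 and WT4, with 3, 4 and 6 of them above 0, and at 16.5 and 17.8 in KO4 and KO5, with 6 above 0 in both. The 9 RG genes summed there to 6.96, 5.6 and 8.58 in WT, with 8, 6 and 9 above 0, against 14.8 and 20.5 in KO, with 9 above 0 in both. In KO5 the vascular genes of these cells summed to 13.8 and the immune genes to 2.95, both below their RG and upper layer genes. There the name vascular and immune stands for the gate only. The cells of this gate numbered 30, 18 and 110 in WT and 195 and 112 in KO, and their levels are given below as the background for each gene.

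Levels are means over the cells of a class, in UMIs per 10000 UMIs of the cell, and are compared for each gene between classes and between libraries, not between genes. In the 3 WT libraries the genes fell into 2 groups by the class of their highest level: *Eomes*, *Neurog2*, *Neurod1* and *Neurod4* were highest in IP-type cells in 3 of 3 libraries, and *Neurod2*, *Neurod6* and *Bhlhe22* in newborn neuron-type or upper layer-type cells in 3 of 3. *Neurog1* and *Nhlh1* were too rare to be placed.

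**Figure D1:**
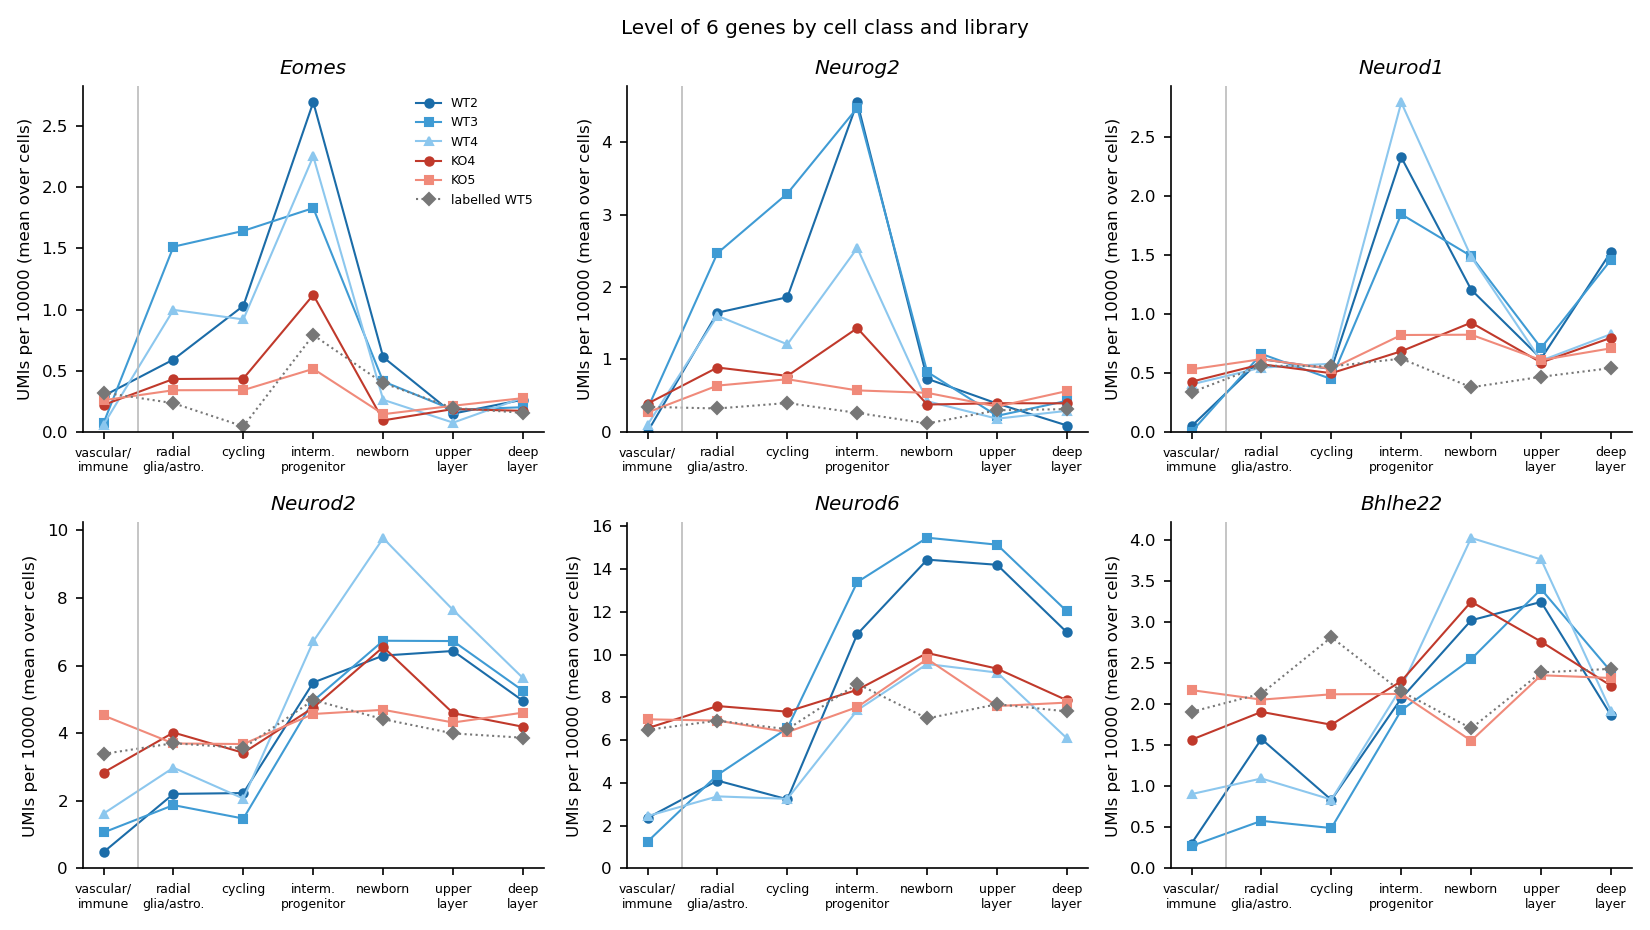
Mean UMIs per 10000 of Eomes, Neurog2, Neurod1, Neurod2, Neurod6 and Bhlhe22 (y axis, linear, own scale per panel) in the 6 lineage classes and in vascular and immune cells (x axis). There is 1 point for each of WT2, WT3, WT4, KO4, KO5 and the library labelled WT5. In WT2, WT3 and WT4 the points of Eomes, Neurog2 and Neurod1 stand highest over IP-type cells and those of Neurod6 over newborn neuron-type cells. In KO4 and KO5 the points of Neurod6 over vascular and immune cells, at 6.56 and 6.97, come close to those over upper layer-type cells, at 9.34 and 7.59.

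*Neurog2*, the proneural factor that starts glutamatergic neurogenesis, was at 1.64, 2.47 and 1.6 UMIs per 10000 in RG-type cells of WT2, WT3 and WT4 and at 1.86, 3.29 and 1.21 in cycling cells. In IP-type cells it was at 4.55, 4.47 and 2.54. It was lower in newborn neuron-type cells at 0.733, 0.827 and 0.423 and lower again in upper layer-type cells at 0.39, 0.221 and 0.181. The level thus rose from RG-type to IP-type cells and fell after them in each WT library, and its values in IP-type and newborn neuron-type cells did not overlap. *Eomes*, which marks intermediate progenitors, took the same course. Its levels in the same libraries were 0.591, 1.51 and 0.997 in RG-type and 2.7, 1.83 and 2.25 in IP-type cells. They were 0.611, 0.412 and 0.262 in newborn neuron-type and 0.149, 0.179 and 0.075 in upper layer-type cells. WT3 stood apart in RG-type cells, where its *Eomes* level came close to that of its IP-type cells. In vascular and immune cells *Eomes* was at 0.294, 0.0712 and 0.0579 and *Neurog2* at 0, 0.318 and 0.096, so that the ranges of upper layer-type cells and of this background overlapped for both genes.

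*Neurod1*, a NeuroD factor of the step from progenitor to neuron, was at 0.615, 0.66 and 0.543 UMIs per 10000 in RG-type cells of WT2, WT3 and WT4 and at 2.33, 1.84 and 2.79 in IP-type cells. It stayed above its RG-type level in newborn neuron-type cells, at 1.2, 1.49 and 1.48, and was at 0.62, 0.71 and 0.603 in upper layer-type and 1.53, 1.46 and 0.827 in deep layer-type cells. *Neurod1* thus stayed up longer along the classes than *Neurog2* and *Eomes*, whose newborn neuron-type levels were below their RG-type levels in each library apart from WT2 for *Eomes*. *Neurod4*, another bHLH factor of neuronal commitment, was rare, with 0.255, 0.16 and 0.116 in IP-type, 0.237, 0.156 and 0.0322 in cycling and 0.122, 0.0541 and 0.0222 in RG-type cells. It was at 0 in newborn neuron-type cells of WT2 and at 0.0226 and 0.00312 in those of WT3 and WT4, and at 0 in vascular and immune cells of all 3.

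*Neurod6*, a NeuroD factor kept by postmitotic glutamatergic neurons, was at 4.1, 4.37 and 3.37 UMIs per 10000 in RG-type cells of WT2, WT3 and WT4 and at 11, 13.4 and 7.4 in IP-type cells. It reached 14.4, 15.5 and 9.56 in newborn neuron-type cells. Upper layer-type cells had 14.2, 15.1 and 9.16 and deep layer-type cells 11, 12 and 6.08, and in each library newborn neuron-type cells were the highest. *Neurod2*, its relative in maturing neurons, was at 2.2, 1.87 and 2.98 in RG-type and 5.5, 4.95 and 6.72 in IP-type cells. It was at 6.29, 6.73 and 9.77 in newborn neuron-type and 6.43, 6.72 and 7.64 in upper layer-type cells. By these gates both genes were already at most of their neuronal level in IP-type cells. With the thresholds of the gates doubled, *Neurod2* was at 1.55, 3.06 and 3.31 in IP-type cells against 6.62, 7.07 and 9.66 in newborn neuron-type cells. *Neurod6* was then at 3.96, 9.46 and 3.68 against 14.7, 15.4 and 9.83. Those gates left 11, 38 and 41 IP-type cells in WT2, WT3 and WT4. *Bhlhe22*, a bHLH repressor of postmitotic projection neurons, was at 1.58, 0.579 and 1.09 in RG-type and 2.07, 1.93 and 2.2 in IP-type cells. Further along, it was at 3.02, 2.55 and 4.03 in newborn neuron-type and 3.25, 3.4 and 3.76 in upper layer-type cells. Its IP-type levels lay below its newborn neuron-type levels in all 3 libraries. In vascular and immune cells of WT2, WT3 and WT4, *Neurod6* was at 2.36, 1.25 and 2.45, *Neurod2* at 0.478, 1.06 and 1.62 and *Bhlhe22* at 0.302, 0.272 and 0.904.

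The highest class stood above the lowest by 52.2, 20.3 and 14-fold for *Neurog2* in WT2, WT3 and WT4 and by 18.1, 10.2 and 30.0-fold for *Eomes*. For *Neurod1* the ratios were 4.37, 4.12 and 5.13 and for *Neurod6* 4.47, 3.54 and 2.94. The lowest levels of *Neurog2* and *Eomes* rest on few UMIs, so their ratios carry more counting error than those of *Neurod6*.

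*Neurog1*, the other neurogenin of the forebrain, was represented by 8 UMIs in WT4, 1 in the library labelled WT5, 1 in KO4 and 3 in KO5 over all kept cells and was not listed in the other libraries. *Nhlh1*, a bHLH factor of early neurons, had 15, 13 and 56 UMIs in WT2, WT3 and WT4 against 7 and 6 in KO4 and KO5. Its mean in IP-type cells was 0.0676, 0.0547 and 0.0954 UMIs per 10000 in WT2, WT3 and WT4 against 0.0359 and 0.0716 in KO4 and KO5. Neither gene reached the filter of a mean of 0.1 UMIs per 10000 in at least 2 libraries in any class, so neither was tested, and no difference in them was detectable at this depth. *Neurod4* reached it in IP-type and cycling cells only, which is why 7 of the 9 genes were tested where these classes enter and 6 elsewhere.

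Neighbouring classes were compared within libraries by limma on log2(mean UMIs per 10000 + 1), with library as a block, and a gene was called where its Benjamini-Hochberg adjusted p over all genes tested was under 0.05. The scale understates changes of low genes. Over WT2, WT3 and WT4, 6 of the 7 genes tested were higher in IP-type than in RG-type cells, where 14.1% of all genes were called in either direction. *Neurod6* was higher by 1.20 (SE 0.089, limma adjusted p = 1.51e-07). For *Neurod1* the difference was 1.04 (SE 0.10, adjusted p = 3.49e-06), and for *Neurod2* it was 1.01 (SE 0.082, adjusted p = 4.10e-07). *Neurog2* rose by 0.72 (limma adjusted p = 0.000218), *Eomes* by 0.70 (limma adjusted p = 0.00284) and *Bhlhe22* by 0.59 (limma adjusted p = 0.00167). From RG-type to cycling cells limma called none of the 7 over WT, and 2 had an unadjusted p under 0.05, with a background of 11.3%.

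From IP-type to newborn neuron-type cells the 7 genes tested were called over WT2, WT3 and WT4, against 1.78% of all genes. The 2 groups were set by the class of the highest level in these same libraries. The directions at this step therefore restate the grouping and are no support for it. *Neurog2* fell by 1.53 (SE 0.083, limma adjusted p = 8.48e-06) and *Eomes* fell by 1.19 (SE 0.083, adjusted p = 2.48e-05). Smaller falls passed the test for *Neurod1*, which fell by 0.47 (limma adjusted p = 0.0245), and *Neurod4*, which fell by 0.22 (adjusted p = 0.0323). *Neurod4* also passed the filter on low values through its IP-type level alone, so it had to differ here. *Bhlhe22* rose by 0.44 (limma adjusted p = 0.0189), *Neurod2* by 0.34 (adjusted p = 0.0235) and *Neurod6* by 0.30 (adjusted p = 0.0113). From newborn neuron-type to upper layer-type cells the first group went on falling, against a background of 9%. There *Neurod1* fell by 0.54 (limma adjusted p = 3.33e-06), *Neurog2* fell by 0.39 (adjusted p = 0.000141) and *Eomes* fell by 0.33 (adjusted p = 0.000259). *Neurod2*, *Neurod6* and *Bhlhe22* were not called at this step. From newborn neuron-type to deep layer-type cells *Neurod6* alone of 6 genes was called, and fell by 0.43 (limma adjusted p = 0.00913, background 0.618%).

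Upper layer-type cells of WT had more *Bhlhe22*, *Neurod6* and *Neurod2* than deep layer-type cells, by 0.55, 0.39 and 0.34 on the log2 scale (limma adjusted p = 0.000951, 0.000878 and 0.0185, background 1.16%). *Neurod1* was lower in upper layer-type cells, with a difference of -0.45 (limma adjusted p = 0.0178), with 0.62, 0.71 and 0.603 UMIs per 10000 against 1.53, 1.46 and 0.827 in deep layer-type cells of WT2, WT3 and WT4. WT4 was the lowest of the 3 in deep layer-type cells, and it held 667 of these cells where WT2 held 38 and WT3 53.

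Over all 5 libraries, WT and KO together, fewer of these steps were called. From RG-type to IP-type cells *Neurod2* alone of 7 was called, at 0.69 (limma adjusted p = 0.0462, background 1.79%), and the call was lost without WT2, WT3 or WT4 (adjusted p = 0.248, 0.164 and 0.165). From IP-type to newborn neuron-type cells 3 of 7 were called, against 0.38% of all genes. Over these libraries *Eomes* fell by 0.99 (limma adjusted p = 0.000146), *Neurog2* fell by 1.09 (adjusted p = 0.00623) and *Neurod6* rose by 0.30 (adjusted p = 0.0198). *Neurog2* was no longer called without WT2 (0.134) or KO4 (0.0757), and *Neurod6* was not called without WT2, WT3, WT4 or KO4 (adjusted p between 0.0771 and 0.198). *Neurod1* fell by 0.42 from newborn neuron-type to upper layer-type cells (limma adjusted p = 0.00802, background 1.42%), and was not called without any 1 of the WT libraries (adjusted p = 0.0725, 0.0674 and 0.0553). From newborn neuron-type to deep layer-type cells *Neurod6* fell by 0.38 (limma adjusted p = 0.000724, background 0.549%) and *Neurod2* by 0.37 (adjusted p = 0.0356), of which *Neurod2* was not called without WT2, WT3, WT4 or KO4 (adjusted p between 0.13 and 0.298). From RG-type to cycling cells 0 of 7 and between upper and deep layer-type cells 0 of 6 were called by limma over the 5 libraries, with backgrounds of 1.68% and 0.254%, and 1 and 4 had an unadjusted p under 0.05.

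Over KO4 and KO5 alone limma called none of the 6 genes tested at any of the 6 steps, and with 2 libraries this says little of stability. From RG-type to IP-type cells 2 of them had an unadjusted p under 0.05 (background of calls 0.422%), and from IP-type to newborn neuron-type cells 3 (0.132%). The count was 2 from newborn neuron-type to upper layer-type cells (0.183%) and 1 to deep layer-type cells (0.145%). It was 0 from RG-type to cycling cells (1.45%) and between upper and deep layer-type cells (0.294%). The ratio of the highest to the lowest class was 3.8 and 2.08 for *Neurog2* in KO4 and KO5, 12 and 3.57 for *Eomes*, 1.86 and 1.54 for *Neurod1* and 1.37 and 1.54 for *Neurod6*. The courses of *Neurog2*, *Neurod1* and *Neurod6* were thus flatter in both KO libraries than in each WT library. The lowest class of *Neurod6* was at 7.33 and 6.37 in KO4 and KO5, beside 6.56 and 6.97 in vascular and immune cells. In WT2, WT3 and WT4 the same levels were 3.23, 4.37 and 3.25 beside 2.36, 1.25 and 2.45. The part of this background in the ratios was not tested. Whether the steps differed between WT and KO was tested on the differences within each library, for IP-type to newborn neuron-type and for newborn neuron-type to upper layer-type cells, and 0 of 7 and 0 of 6 genes were called by limma, with backgrounds of 0.0211% and 0.0556%. At an unadjusted p under 0.05 there were 3 of the 7 and 3 of the 6.

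Shares of cells with at least 1 UMI were taken after thinning to 1800 UMIs per cell, which makes the depths equal. *Eomes* was seen in 26.3, 22.7 and 23% of IP-type cells of WT2, WT3 and WT4, against 3.33, 5.56 and 0.909% of vascular and immune cells. Median depths before thinning were 2290, 3202 and 4168 UMIs in the former and 4408, 3840 and 3908 in the latter. *Neurog2* was seen in 28.9, 30.1 and 17.8% against 0, 5.56 and 2.73%, and *Neurod1* in 28.9, 27.8 and 27% against 3.33, 0 and 5.45%. Each of the 3 genes was thus seen well above the background in WT IP-type cells. Before thinning the shares in WT IP-type cells were 32.9, 30.6 and 32.6% for *Eomes*, 32.9, 37.5 and 27.6% for *Neurog2* and 32.9, 38.4 and 45.7% for *Neurod1*.

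In KO4 and KO5, *Eomes* was seen in 17.8 and 8.2% of cells of the IP gate against 3.08 and 4.46% of vascular and immune cells, at median depths before thinning of 2301 and 2297 UMIs in the gate and 2227 and 2192 in those cells. *Neurog2* was seen in 17.8 and 11.5% against 7.18 and 3.57% and *Neurod1* in 13.1 and 9.84% against 6.67 and 8.04%. All 3 shares were below those of each WT library, apart from *Neurog2* in KO4, which equalled WT4 to within 0.1 percentage points, and above the background of their own library, though for *Neurod1* in KO5 by 9.84% to 8.04% only, in 61 and 112 cells. *Neurod6* was seen in 86.2, 86 and 71.3% of WT upper layer-type cells against 30, 11.1 and 32.7% of vascular and immune cells, and in KO4 and KO5 in 80.9 and 74% against 64.1 and 73.2%. For *Neurod2* the WT shares were 66.3, 66 and 66.2% against 10, 16.7 and 20% and the KO shares 55.6 and 56.6% against 37.9 and 51.8%. For *Bhlhe22* they were 41.3, 43.1 and 43% against 6.67, 5.56 and 14.5% in WT and 38.3 and 32.7% against 22.1 and 34.8% in KO, where the share of KO5 was at its background and is not read as expression. The gap between upper layer-type cells and the vascular and immune gate was therefore wide in WT and narrow in KO for all 3.

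**Figure D2:**
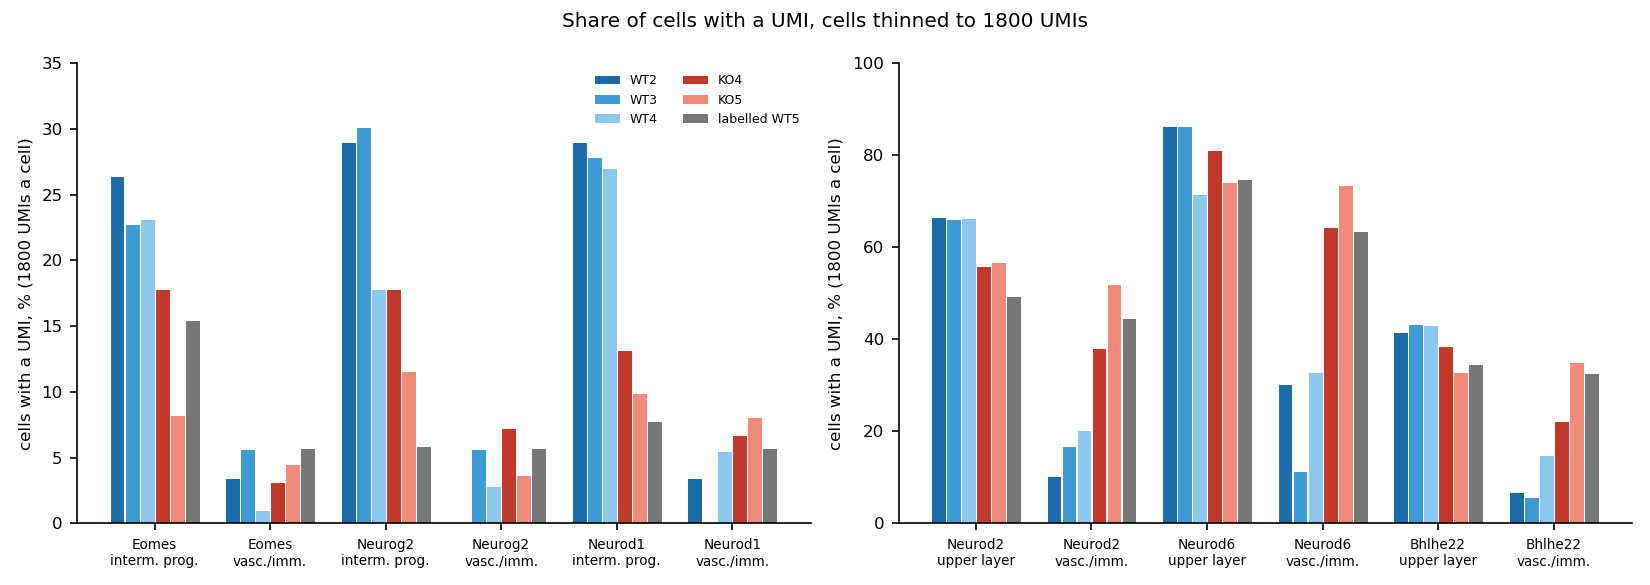
Percent of cells with at least 1 UMI after thinning to 1800 UMIs (y axis), by gene and class (x axis). Bars stand for WT2, WT3, WT4, KO4, KO5 and the library labelled WT5. Eomes, Neurog2 and Neurod1 are shown in IP-type cells and in vascular and immune cells. Neurod2, Neurod6 and Bhlhe22 are shown in upper layer-type cells and in vascular and immune cells. In WT2, WT3 and WT4 the vascular and immune bars of Neurod2, Neurod6 and Bhlhe22 are far below those of upper layer-type cells. In KO4 and KO5 they come up to 64.1 and 73.2% for Neurod6 and 37.9 and 51.8% for Neurod2.

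*Eomes* and *Neurog2* were seen in the same thinned cell in 14, 33 and 36 of 76, 216 and 304 IP-type cells of WT2, WT3 and WT4, or 18.4, 15.3 and 11.8%, and in 7 and 1 of 107 and 61 in KO4 and KO5, or 6.54 and 1.64%. At least 1 of *Eomes*, *Neurog2* and *Neurod1* was seen in 56.6, 54.2 and 47.7% of IP-type cells in WT and 34.6 and 26.2% in KO. In upper layer-type cells that was so for 14.8, 16.8 and 12.4% in WT and 18.7 and 18.46% in KO. Genes of the first and of the second group were seen together in 47.4, 47.7 and 36.8% of WT IP-type cells and 30.8 and 23% of those in KO4 and KO5. No joint background was computed for these shares, and neuron-side genes were seen in most WT cells of that gate, so they are a description of detection only. At least 1 of *Neurod2*, *Neurod6* and *Bhlhe22* was seen in 63.3, 54.5 and 55.8% of RG-type cells of WT2, WT3 and WT4 and in 89.7 and 87.6% of those of KO4 and KO5. These are neuronal genes in a progenitor gate, and both KO libraries lay above the 3 WT libraries.

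WT2, WT3 and WT4 were compared with KO4 and KO5 class by class, which asks whether loss of long TCF4 isoforms goes with a different level of the cascade at each stage. *Neurog2*, *Eomes* and *Neurod1* were lower in KO in the IP gate, as were *Neurog2* in RG-type and *Eomes* in cycling cells. *Neurod6* was higher in KO RG-type cells and *Neurod2* and *Bhlhe22* in KO cycling cells, and *Neurod2* was lower in KO upper layer-type cells. In these 9 results the values of KO4 and KO5 lay outside those of the 3 WT libraries, and the shares of all genes for which this held are given below. They therefore also lay on the same side of WT4, the WT library deposited in the same form, which is no separate check. Beside them stand the haemoglobin-rich cells, the lower depth and the neuronal RNA in vascular and immune cells of KO4 and KO5 given above, and their part in the results was not tested. Each of the 9 calls was lost under at least 1 other gate, tool or set of libraries, as given with it below. Each library is 1 animal, so the p-values measure the spread between 3 and 2 animals.

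In IP-type cells *Neurog2* was at 4.55, 4.47 and 2.54 UMIs per 10000 in WT2, WT3 and WT4 and at 1.43 and 0.572 in KO4 and KO5, or 3.85 ± 1.14 (SD, n = 3) against 1.0 ± 0.608 (SD, n = 2). The groups did not overlap, WT4 was the lowest WT library, and the KO minus WT difference was -1.28 on the log2 scale (SE 0.20, limma adjusted p = 0.00066). *Neurod1* was at 2.33, 1.84 and 2.79 in WT against 0.682 and 0.82 in KO, or 2.32 ± 0.473 (SD, n = 3) against 0.751 ± 0.0974 (SD, n = 2). Both KO libraries lay below every WT library, with a difference of -0.91 on the log2 scale (SE 0.16, limma adjusted p = 0.00133). *Eomes* was at 2.7, 1.83 and 2.25 in WT against 1.12 and 0.515 in KO, or 2.26 ± 0.433 (SD, n = 3) against 0.817 ± 0.428 (SD, n = 2). Its groups did not overlap either, and the difference was -0.85 on the log2 scale (SE 0.17, limma adjusted p = 0.00446). These were the 3 of 7 genes called, all lower in KO, where 2.62% of all genes tested were called in either direction and 1.38% lower in KO. Both KO libraries lay below every WT library for 25.3% of all genes and above for 10.7%. *Neurod2* was at 5.5, 4.95 and 6.72 against 4.75 and 4.57, *Neurod6* at 11, 13.4 and 7.4 against 8.35 and 7.54, and *Bhlhe22* at 2.07, 1.93 and 2.2 against 2.28 and 2.12, and none of these was called. *Neurod4*, at 0.255, 0.16 and 0.116 against 0.0779 and 0, was not called either (limma adjusted p = 0.208), and it passed the filter through its WT levels.

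The IP-type calls depended on the fit. By edgeR's quasi-likelihood test on summed UMIs *Neurod1* was called (log2 fold change -1.49, adjusted p = 0.0101), while *Neurog2* (-1.43, adjusted p = 0.202) and *Eomes* (-0.96, adjusted p = 0.192) were not. Among all genes limma called 108 higher and 121 lower in KO and edgeR 74 and 13. Without KO5 *Neurog2* was at -0.97 (limma adjusted p = 0.0943) and *Eomes* at -0.61 (adjusted p = 0.282), and without WT2 *Eomes* was at -0.76 (adjusted p = 0.0572). With gates on unthinned cells *Neurod1* alone was called (adjusted p = 0.0147), and *Neurog2* and *Eomes* were not (0.47 and 0.248). With the gates 1 UMI higher, where KO5 kept under 10 cells and fell out of the fit, none of the 3 was called (adjusted p = 0.121, 0.167 and 0.198 for *Neurog2*, *Neurod1* and *Eomes*). With the replicate number as a block, a fit that here pairs WT4 with KO4 and the library labelled WT5 with KO5, since KO2 held 3 of these cells, *Neurod1* was at -0.50 (adjusted p = 0.768), *Eomes* at -0.43 (0.862) and *Neurog2* at -0.11 (0.99).

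In RG-type cells *Neurog2* was at 1.64, 2.47 and 1.6 UMIs per 10000 in WT2, WT3 and WT4 and at 0.888 and 0.638 in KO4 and KO5. It was lower in both KO libraries than in every WT library, with a difference of -0.71 on the log2 scale (SE 0.15, limma adjusted p = 0.0136). This call hung on the gate: *Neurog2* was at -0.50 with the gates 1 UMI higher (adjusted p = 0.0898), at -1.16 with gates on unthinned cells (0.146), and above 0 with the gates doubled, at 0.37 (0.211). *Neurod6* went the other way, with 4.1, 4.37 and 3.37 in WT against 7.59 and 6.91 in KO, or 3.95 ± 0.52 (SD, n = 3) against 7.25 ± 0.481 (SD, n = 2), a difference of 0.74 on the log2 scale (SE 0.14, limma adjusted p = 0.00961). In the vascular and immune cells of the same libraries *Neurod6* was at 2.36, 1.25 and 2.45 against 6.56 and 6.97. These were the 2 of 6 genes called, against 7.77% of all genes tested. *Eomes* was at 0.591, 1.51 and 0.997 against 0.432 and 0.34 (limma adjusted p = 0.0634), *Neurod2* at 2.2, 1.87 and 2.98 against 4.02 and 3.69 (adjusted p = 0.0503) and *Bhlhe22* at 1.58, 0.579 and 1.09 against 1.91 and 2.06 (adjusted p = 0.0793). Their groups did not overlap either, which was so for 33% of all genes with KO below and 14.2% with KO above. edgeR called 5 of the 6 and DESeq2 5, and among all genes limma called 216 higher and 488 lower in KO where edgeR called 627 and 706. Without KO5 *Neurod6* was at 0.80 (limma adjusted p = 0.0695) and *Neurog2* at -0.61 (0.181). With gates on unthinned cells *Neurod6* was at 0.027 (0.938). Without KO4 *Neurod6* was at 0.68 (0.147), and under the replicate block, which here and in cycling and upper layer-type cells adds the pair of WT2 and KO2, they were at 0.32 (0.74) and -0.10 (0.886).

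In cycling cells *Eomes* was at 1.03, 1.64 and 0.919 UMIs per 10000 in WT2, WT3 and WT4 and at 0.436 and 0.341 in KO4 and KO5, a difference of -0.65 on the log2 scale (SE 0.13, limma adjusted p = 0.00185). *Bhlhe22* was at 0.834, 0.49 and 0.837 in WT against 1.75 and 2.12 in KO, a difference of 0.77 on the log2 scale (SE 0.14, limma adjusted p = 0.000329). *Neurod2* there was at 2.23, 1.47 and 2.06 against 3.42 and 3.68, a difference of 0.65 on the log2 scale (SE 0.15, limma adjusted p = 0.00615). The first was lower and the other 2 higher in KO, 3 of 7 genes called against 12.1% of all genes tested (8.21% lower and 3.87% higher in KO), and the groups of each did not overlap (of all genes 30.1% had both KO libraries below every WT library and 14.3% above). In vascular and immune cells of KO4 and KO5 *Bhlhe22* was at 1.57 and 2.17 and *Neurod2* at 2.84 and 4.52. Both genes were thus lower in cycling cells of KO5 than in this background. *Neurog2*, at 1.86, 3.29 and 1.21 in WT against 0.772 and 0.726 in KO cycling cells, was not called (limma adjusted p = 0.0606). In KO4 and KO5 49.5 and 68.1% of the cells of this gate were exactly at its threshold, against 14.7, 16.5 and 21.2% in WT. Among all genes limma called 345 higher and 732 lower in KO, and edgeR 439 and 399. Without KO5 *Neurod2* was at 0.61 (limma adjusted p = 0.114). With the gates doubled none of the 3 was called (adjusted p = 0.076, 0.108 and 0.238 for *Eomes*, *Neurod2* and *Bhlhe22*). With gates on unthinned cells *Neurod2* was at 0.14 (limma adjusted p = 0.749) and *Bhlhe22* at 0.45 (0.286), and with all libraries as labelled both turned direction, to -0.25 and -0.15. With the replicate block *Eomes* was at -0.076 (0.968), and *Bhlhe22* at -0.17 (0.916) and *Neurod2* at -0.22 (0.915) turned direction.

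In newborn neuron-type cells none of 6 genes was called by limma, edgeR or DESeq2, and 2 had an unadjusted limma p under 0.05, with 0.761% of all genes called. All 6 differences were below 0, from -0.37 to -0.18. *Neurod6* was at 14.4, 15.5 and 9.56 UMIs per 10000 in WT2, WT3 and WT4 against 10.1 and 9.79 in KO4 and KO5, and *Neurod1* at 1.2, 1.49 and 1.48 UMIs per 10000 in WT2, WT3 and WT4 against 0.925 and 0.822 in KO4 and KO5. KO5 held 33 of these cells, and WT3 319.

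In upper layer-type cells *Neurod2* was at 6.43, 6.72 and 7.64 UMIs per 10000 in WT2, WT3 and WT4 against 4.59 and 4.32 in KO4 and KO5, or 6.93 ± 0.633 (SD, n = 3) against 4.45 ± 0.195 (SD, n = 2), a difference of -0.54 on the log2 scale (SE 0.11, limma adjusted p = 0.0353). It was the only 1 of 6 genes called there, against 2.44% of all genes. In vascular and immune cells of KO4 and KO5 *Neurod2* was at 2.84 and 4.52, so the upper layer-type level of KO5 was below this background. *Neurod6* was at 14.2, 15.1 and 9.16 against 9.34 and 7.59, where WT4 fell among the KO libraries, and *Bhlhe22* at 3.25, 3.4 and 3.76 against 2.76 and 2.35, where the groups did not overlap (limma adjusted p = 0.15). Among all genes 31.9% had both KO libraries below every WT library. The *Neurod2* call was lost without KO5 (adjusted p = 0.773), KO4 (0.357) or WT2 (0.0911), with the replicate block (-0.34, 0.731), by edgeR (-0.46, 0.143) and with levels from thinned cells (-0.50, 0.054). It was also lost by DESeq2 (-0.47, adjusted p = 0.157) and with gates on unthinned cells (-0.53, limma adjusted p = 0.0569), where *Eomes* was called instead and higher in KO (0.16, limma adjusted p = 0.0384). With the gates doubled *Neurod2* was still called, and *Eomes* (0.18, limma adjusted p = 0.036) and *Neurog2* (0.23, limma adjusted p = 0.0455) were called higher in KO upper layer-type cells. In deep layer-type cells 0 of 6 were called by limma, edgeR or DESeq2, 1 had an unadjusted limma p under 0.05 and the background was 0.496%. Deep layer-type *Neurod2* was at 4.95, 5.25 and 5.63 against 4.19 and 4.61, and *Neurod6* at 11, 12 and 6.08 against 7.86 and 7.75.

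Over all kept cells 0 of 6 genes were called by limma, edgeR or DESeq2, 2 had an unadjusted limma p under 0.05 and the background was 1.15%. *Eomes* was at 0.548, 0.667 and 0.351 UMIs per 10000 in WT2, WT3 and WT4 against 0.289 and 0.253 in KO4 and KO5, and *Neurod1* at 0.792, 1.04 and 0.798 against 0.593 and 0.624. Both genes were lower in each KO library than in every WT library, as were 43.9% of all genes tested, while 9.03% were higher in both. Fewer IP-type cells and less *Eomes* RNA per cell cannot be told apart in such a mean.

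**Figure D3:**
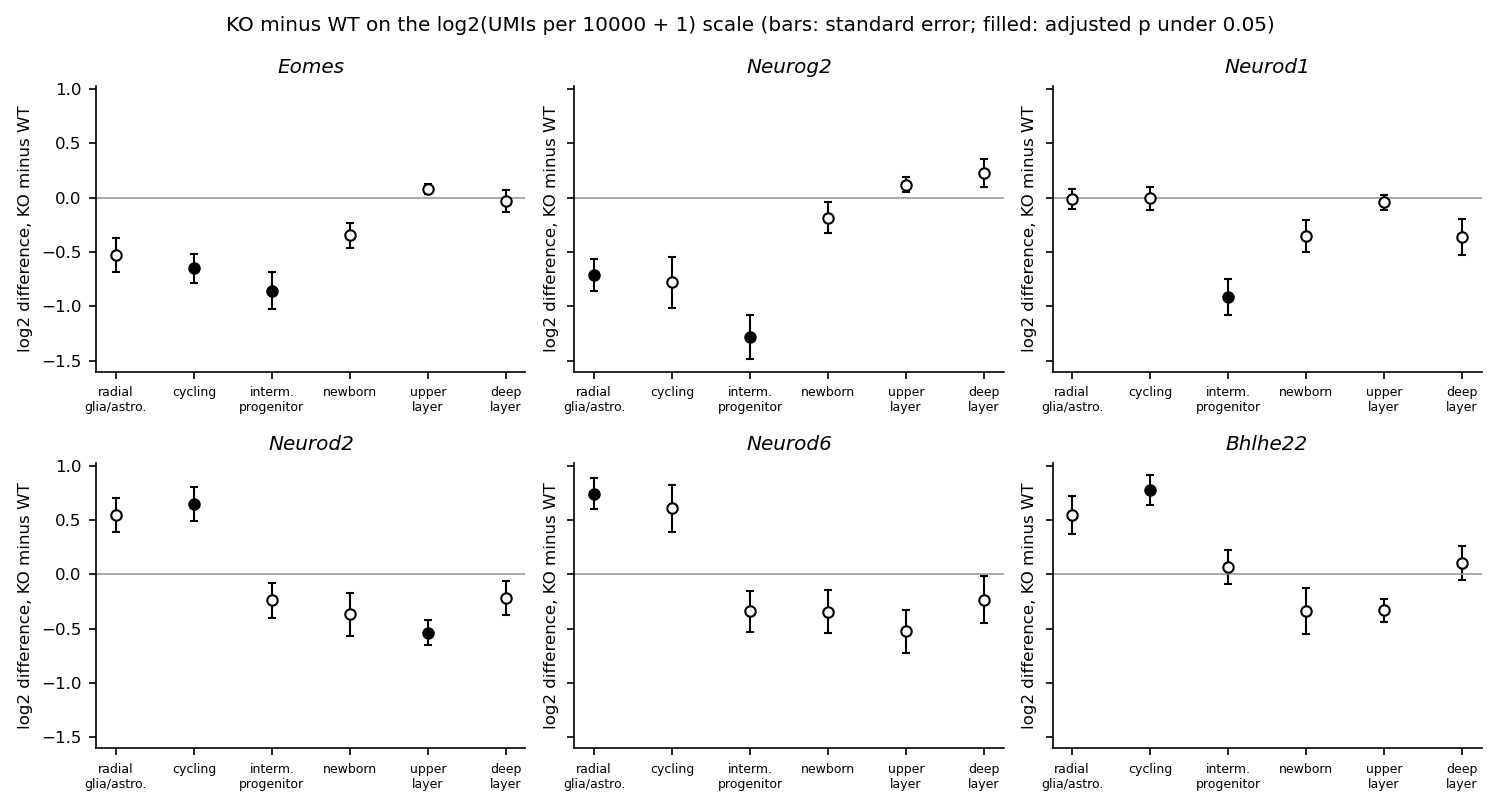
KO minus WT difference of log2(mean UMIs per 10000 + 1) with its standard error (y axis) by class (x axis), filled where the limma adjusted p was under 0.05. The panels are Eomes, Neurog2, Neurod1, Neurod2, Neurod6 and Bhlhe22. Eomes, Neurog2 and Neurod1 lie below the zero line in intermediate progenitor-type cells, at -0.85, -1.28 and -0.91. Neurod6 lies above it in radial glia and astrocyte-type cells, at 0.74.

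Because vascular and immune cells of KO4 and KO5 held neuronal RNA, each gene was also compared with those cells within its library, a comparison chosen after the values were seen. *Neurod6* was at 2.36, 1.25 and 2.45 UMIs per 10000 in vascular and immune cells of WT2, WT3 and WT4 and at 6.56 and 6.97 in KO4 and KO5. In the same cells *Neurod2* was at 0.478, 1.06 and 1.62 against 2.84 and 4.52, and *Bhlhe22* at 0.302, 0.272 and 0.904 against 1.57 and 2.17. In KO these levels came near those of the upper layer-type cells of the same library, at 9.34 and 7.59 for *Neurod6*, 4.59 and 4.32 for *Neurod2* and 2.76 and 2.35 for *Bhlhe22*. Vascular marker genes in these cells summed to 69.5, 66.1 and 40.5 in WT and 22.3 and 13.8 in KO. Over WT2, WT3 and WT4, 7 of 7 genes were higher in IP-type than in vascular and immune cells. So were 6 of 6 in newborn neuron-type and 4 of 6 in upper layer-type cells. Of all genes 24.9%, 30.7% and 32.4% were called in either direction. *Neurod4*, 1 of the 7, was at 0 in vascular and immune cells of these libraries and passed the filter through its IP-type level alone. It had to differ here, so its call is no support. Over KO4 and KO5 the counts were 0, 1 and 1, against 1.09%, 1.5% and 4.3%. The gene called was *Neurod6* in both, by 0.49 (limma adjusted p = 0.0291) and 0.28 (0.0247). Over all 5 libraries *Eomes* was called in IP-type cells (1.12, adjusted p = 0.0403, background 2.44%) and *Neurod1* in newborn neuron-type cells (0.78, 0.0275, background 6.25%), and none in upper layer-type cells (background 0.00981%).

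The difference between a class and the vascular and immune cells was then compared between WT and KO. This comparison was set up after neuronal RNA had been seen in those cells of KO4 and KO5, so for *Neurod2*, *Neurod6* and *Bhlhe22* it restates that observation, and their values are given with no test. In IP-type cells the KO minus WT difference was -1.73 for *Neurod6*, -1.44 for *Neurod2* and -0.90 for *Bhlhe22*. It was -1.74, -1.57 and -1.30 in newborn neuron-type cells and -1.91, -1.74 and -1.29 in upper layer-type cells. Among the progenitor-side genes, *Neurog2* was at -1.51 in IP-type cells (SE 0.25, limma adjusted p = 0.00189), *Neurod1* at -1.29 (SE 0.21, adjusted p = 0.00182) and *Eomes* at -0.98 (SE 0.22, adjusted p = 0.0161), which uses the same IP-type levels as the comparison of WT and KO above. Of all genes 4.35% were called in IP-type, 6.07% in newborn neuron-type and 5.21% in upper layer-type cells. In vascular and immune cells *Eomes* was at 0.294, 0.0712 and 0.0579 in WT against 0.22 and 0.258 in KO, and *Neurog2* at 0, 0.318 and 0.096 against 0.389 and 0.268. The groups overlapped for both. *Neurod1* was at 0.0475, 0 and 0.402 against 0.425 and 0.53. For the neuron-side genes the smaller difference stood beside a higher level in vascular and immune cells of KO, and for *Neurog2*, *Eomes* and *Neurod1* beside a lower level in the IP gate. Without KO5 none of these genes was called in any of the 3 classes, and without KO4 2 were in each; the KO group is then 1 library, assumed to vary like the WT libraries.

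**Figure D4:**
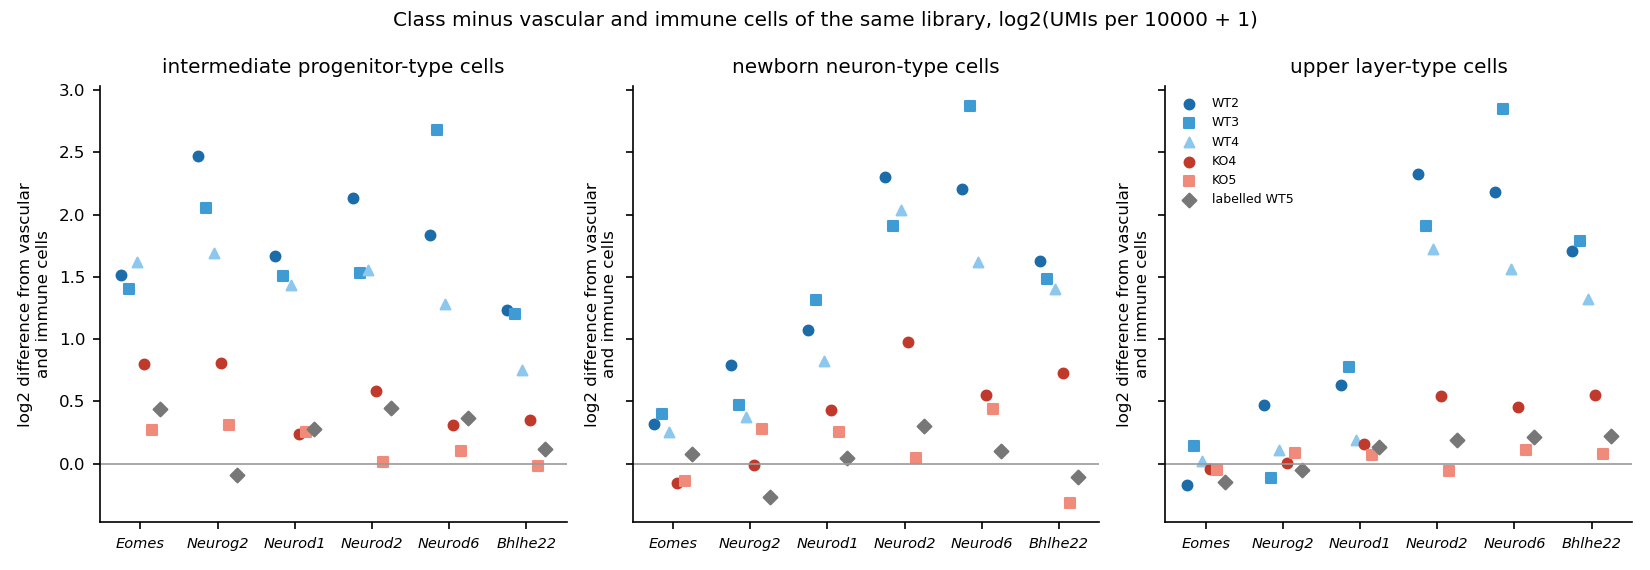
Difference of log2(mean UMIs per 10000 + 1) between a class and the vascular and immune cells of the same library (y axis). The x axis holds Eomes, Neurog2, Neurod1, Neurod2, Neurod6 and Bhlhe22, and the panels are intermediate progenitor-type, newborn neuron-type and upper layer-type cells. There is 1 point for each of WT2, WT3, WT4, KO4, KO5 and the library labelled WT5. The KO points of Neurod2, Neurod6 and Bhlhe22 lie nearer to 0 than the points of WT2, WT3 and WT4, with a KO minus WT difference of -1.91 for Neurod6 in upper layer-type cells.

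Other genes of the pathway were counted from 2 lists, 14 bHLH partners and inhibitors and 10 known partners and targets of neurogenin and NeuroD factors. In RG-type cells 5 of 11 partners and inhibitors tested were lower in KO and none higher, against 5.39% of all genes lower. *Hes5*, a Notch-driven repressor of the cascade, was at 3.25, 3.27 and 4.61 UMIs per 10000 in WT2, WT3 and WT4 against 0.689 and 0.513 in KO4 and KO5 (-1.55 on the log2 scale, limma adjusted p = 0.000147). *Id3*, an inhibitor of E proteins, was at 4.47, 3.54 and 5.23 against 0.874 and 0.439 (-1.71, limma adjusted p = 0.000147), and *Id1*, *Hey1* and the E protein gene *Tcf3* were the others. The median of the list was -0.42, beside -0.051 over all genes tested. *Hes5* and *Id3* belong with radial glia. The 9 RG marker genes also had a lower sum in the KO cells of this gate, and the part of this in the levels of *Hes5* and *Id3* was not tested. Of the 10 partners and targets 3 were higher in KO RG-type cells, *Sox4*, *Sox11* and *Stmn2*, a tubulin-binding protein of growing axons that was at 9.9, 4.08 and 9.76 against 19 and 20.8 (1.31, limma adjusted p = 0.0172), against 2.38% of all genes higher. *Stmn2* was not called without KO4 (0.126) or KO5 (0.197), and with the replicate block the adjusted p of *Hes5*, *Id3* and *Stmn2* was 0.687, 0.687 and 0.80.

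In IP-type cells *Tcf4* and *Id2* were the 2 of 9 partners and inhibitors called, both lower in KO, where 1.38% of all genes were lower and 2.62% called in either direction. *Id2*, an inhibitor of E proteins that neurons also express, was at 8.68, 9.73 and 8.37 UMIs per 10000 in WT2, WT3 and WT4 against 4.82 and 3.23 in KO4 and KO5 (-1.0, limma adjusted p = 0.000767). It was also called, and lower, in newborn neuron-type (-0.88, adjusted p = 0.0315), upper layer-type (-1.29, 0.00227) and deep layer-type cells (-0.93, 0.0468), the only gene of the lists called in all 4 of these classes. Without KO5 its adjusted p was 0.211 in IP-type, 0.0752 in upper layer-type and 0.43 in deep layer-type cells. Without WT2 it was 0.249 in newborn neuron-type and 0.122 in deep layer-type cells, and without WT3 0.141 and 0.103 in the same classes. Without KO4 it was 0.288 in deep layer-type cells. With the replicate block it was between 0.217 and 1.0 in the 4 classes. *Tcf4*, the altered gene, was at 13.6, 14.7 and 15.7 against 9.93 and 8.04 in IP-type cells (-0.65, adjusted p = 0.033), and was not called without WT2, WT3, KO4 or KO5 (adjusted p between 0.0755 and 0.44) or with the replicate block (0.963). Of the partners and targets, *Dcx*, a microtubule protein of migrating neurons, was lower in the KO cells of the IP gate (-0.68, limma adjusted p = 0.0199) and *Stmn2* higher (0.86, 0.0121), so this list had 1 called gene in each direction of 10 tested, against the same 2.62% of all genes. *Dcx* was not called without WT2 (0.12), KO4 (0.0748) or KO5 (0.29). *Stmn2* was not called there without WT2 (0.0507), WT3 (0.103) or KO5 (0.347), and with the replicate block their adjusted p was 0.768 and 0.987. In cycling cells 4 of 11 partners and inhibitors were lower (*Tcf3*, *Tcf12*, *Id3* and *Hes5*) and 2 of 10 partners and targets higher (*Sox4* and *Stmn2*), against 8.21% of all genes lower and 3.87% higher. In upper layer-type cells *Hes5* was higher beside the lower *Id2* (0.19, limma adjusted p = 0.0395). In newborn neuron-type, upper layer-type and deep layer-type cells and over all kept cells none of the 10 partners and targets was called. Each of these calls was lost with the replicate block.

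Over the 30 combinations of 6 classes and 5 libraries, the pattern of each gene was compared with those of 10727 genes by Pearson's r, as a description, since these points share libraries, depth and cells of neighbouring stages. The gene most like *Eomes* was *Neurog2* (r = 0.949), followed by *Mfap4* (0.909), which is a gene of the IP gate, and the gene most like *Neurog2* after *Eomes* was *Ezr* (0.908). *Neurod1* was most like *Igfbpl1* (0.874) and *Grem1* (0.843), and *Neurod4* most like *Neurog2* (0.834) and *Ddx52* (0.817). *Neurod2* was most like *Gria2* (0.947) and *Cd24a* (0.932), *Neurod6* most like *Zbtb18* (0.912) and *Cirbp* (0.885), and *Bhlhe22* most like *Neurod2* (0.911) and *Myt1l* (0.91). *Neurod1*, which was highest in IP-type cells, had a higher r with *Neurod2* (0.537) and *Neurod6* (0.476) than with *Eomes* (0.401) or *Neurog2* (0.298), so the cascade did not part cleanly into its 2 groups by this measure. Over the 18 WT points alone the r of *Eomes* with *Neurog2* and of *Bhlhe22* with *Neurod2* were 0.952 and 0.946.

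In the library labelled WT5, whose *Tcf4* level was the lowest of the libraries with over 1000 cells, *Neurog2* was at 0.261 UMIs per 10000 in the IP gate, *Neurod1* at 0.619 and *Eomes* at 0.791, the first 2 below both KO libraries and *Eomes* between KO5 and KO4. Its *Neurod6* was at 6.91 in RG-type cells and 6.48 in vascular and immune cells, near KO4 and KO5. With this library added to the WT group none of the 9 genes was called in RG-type, cycling, IP-type or upper layer-type cells.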

How the data were processed

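Per the labels, 1 droplet library was made from the neocortex of each embryo, and the submitters' processing notes name Cell Ranger 2.1.0, Seurat 2.3.4 and R 3.6.0. WT4, WT5, KO4 and KO5 were deposited as UMI counts; WT1, WT2, WT3, KO1 and KO2 were deposited as natural log values of UMIs per 10000 plus 1, made by the authors in Seurat, from which whole UMIs were recovered for 100% of values. Cells with 1800 to 10000 UMIs, 1000 to 5000 genes, at most 6% mitochondrial and 1% haemoglobin UMIs were kept. No doublet caller was run, and cells with 2 or more UMIs of markers of another lineage were set apart.

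Each cell was thinned to 1800 UMIs and placed by marker sums that reached a gate (5 UMIs for RG-type, 3 for cycling and IP-type, and 2 for neuron classes). Gates were read in a fixed order: out of the lineage, cycling, RG-type, IP-type, then the 3 neuron classes together. Only among the neuron classes did the highest sum place the cell. Levels were averaged per library and class of at least 10 cells and tested on log2(level + 1) with limma 3.58.1 in R 4.3.3 (trend, robust), on genes that averaged 0.1 or above in at least 2 libraries, with Benjamini-Hochberg adjustment at 0.05. edgeR 4.0.16 and DESeq2 1.42.0 on summed UMIs were alternatives. The fits were tested on simulated data. The named genes are the 9 genes, the 2 lists and, for each of the 9, the 2 genes of most similar pattern. The genes, lists, gates and comparisons were chosen with earlier results of these data known.

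The labels number replicates alike in WT and KO. In upper layer-type cells the deviations of same-numbered libraries from their group means correlated at 0.444, 0.331 and 0.335 over 1100 genes for numbers 2, 4 and 5. Over all kept cells they correlated at 0.683, 0.363 and 0.528, but WT5 with KO4 was at 0.384, above WT4 with KO4. WT2 and KO2 also share their form of deposit, and KO2 held 14 upper layer-type cells. That the numbers pair the libraries is thus an assumption, and the fit with the replicate block is given beside the results it changes. Total UMIs per deposited library ran from 348105 to 29767293.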

Additional observations from a re-analysis of the deposited data

Results flagged for a closer look

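Of 18 groups of libraries looked at over all kept cells, 3 held a library whose gap to its nearest neighbour took up most of the range of its group, where chance gives about 1 in 20. *Neurog1* stood apart in KO5 at 0.00519 UMIs per 10000 among the libraries labelled KO, a value made by 3 UMIs. *Neurod1* stood apart in the library labelled KO1 at 1.24, and *Bhlhe22* in WT1 at 1.03 among the libraries labelled WT, the lowest of them.

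The library labelled KO1, which entered no comparison but the alternatives, had *Eomes* at 1.47 and *Neurod1* at 1.24 UMIs per 10000 over all kept cells, above each of WT2, WT3 and WT4, and its *Tcf4* level went against its label.

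The difference between a class and the vascular and immune cells of the same library differed between WT and KO. The comparison was set up after neuronal RNA had been seen in those cells of KO, so the values of *Neurod2*, *Neurod6* and *Bhlhe22* restate that observation. In IP-type cells the KO minus WT value was -0.90 for *Bhlhe22*, -0.98 for *Eomes*, -1.29 for *Neurod1*, -1.44 for *Neurod2*, -1.73 for *Neurod6* and -1.51 for *Neurog2* on the log2 scale. In newborn neuron-type cells it was -1.30 for *Bhlhe22*, -1.57 for *Neurod2* and -1.74 for *Neurod6*, and in upper layer-type cells -1.29, -1.74 and -1.91 for the same genes. None of these was called without KO5.

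In 4 cases every WT library moved one way between classes and both KO libraries the other. *Eomes* from newborn neuron-type to upper layer-type cells differed by -0.49, -0.26 and -0.23 in WT2, WT3 and WT4 and by a mean of 0.10 in KO, and *Neurod1* from IP-type to newborn neuron-type cells by -0.59, -0.19 and -0.61 and a mean of 0.10; neither was called in the test of the step between WT and KO. *Neurog2* from newborn neuron-type to deep layer-type cells differed by -0.67, -0.36 and -0.14 in WT and by a mean of 0.020 in KO, and this difference was not tested. *Neurod4* from RG-type to cycling cells differed by 0.14, 0.13 and 0.014 in WT2, WT3 and WT4 and by -0.030 and -0.021 in KO4 and KO5, at levels near the filter on low values, and this difference was not tested either.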

How the results depend on the processing

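Over 21 comparisons, 175 recomputed counts of called genes of the cascade stayed within 1.5 times the reported count and 116 did not. Of the recomputed differences of single genes 751 kept their direction and side of the threshold, 317 were no longer called, 111 were newly called and 14 changed direction; the causes were not tested unless named. In WT against KO, where RG-type, cycling, IP-type and upper layer-type cells had 2, 3, 3 and 1 called, edgeR with TMM or RLE scaling gave 5 in RG-type, 1 in IP-type and 0 in upper layer-type cells, and DESeq2 5 in RG-type and 0 in upper layer-type cells. Without the filter on low values, which adds genes to the adjustment, RG-type, IP-type and upper layer-type cells had 0. Gates on unthinned cells gave 0, 1 and 1 in RG-type, cycling and IP-type cells and, in upper layer-type cells, 1 that was *Eomes* and not *Neurod2*, gates at a doubled threshold 0 in cycling and 3 in upper layer-type cells, gates 1 UMI higher 0 in IP-type cells, and thinned levels 0 in upper layer-type cells. With the library labelled WT5, with all libraries as labelled, and with the replicate block, these 4 classes had 0; in IP-type cells all libraries as labelled added only the library labelled WT5, and the block rested on numbers 4 and 5. The other 3 comparisons of WT and KO had 0 called under each of these settings that could be fitted; the doubled threshold left 2 and 0 KO cells in the IP gate and gave no fit there.

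Of the steps between classes, RG-type to IP-type (1 called) had 6 with doubled gates, 5 with gates 1 UMI higher, 4 with thinned levels and 4 with a pseudocount of 0.1; IP-type to newborn neuron-type (3) had 1 with unthinned gates, 1 with all libraries, 6 with doubled gates and 7 with gates 1 UMI higher; newborn neuron-type to upper layer-type (1) had 0 with gates 1 UMI higher; and newborn neuron-type to deep layer-type (2) had 1 with all libraries and 1 with a pseudocount of 0.1. Over WT2, WT3 and WT4 these 4 steps and upper against deep layer-type cells had 6, 7, 3, 1 and 4, and over KO4 and KO5 the 4 steps had 0. Against vascular and immune cells, IP-type cells (1) had 0 with unthinned gates, 6 with doubled gates, 6 with gates 1 UMI higher, 5 with thinned levels, 4 with a pseudocount of 0.1, 7 over WT and 0 over KO; newborn neuron-type cells (1) had 3 with unthinned gates, 2 with all libraries, 4 with doubled gates, 3 with gates 1 UMI higher, 2 with thinned levels, 2 with a pseudocount of 0.1 and 6 over WT; and upper layer-type cells (0) had 3 with all libraries, 4 over WT and 1 over KO. The KO minus WT test of that difference in IP-type cells (6) had 3 with unthinned gates and 0 with gates 1 UMI higher.

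Leaving out each of the 5 libraries in turn gave 0 to 2, 0 to 4, 3 to 5, 1 to 4, 0 to 1, 0 to 2 and 0 to 0 genes called in all kept, RG-type, cycling, IP-type, newborn neuron-type, upper layer-type and deep layer-type cells; 0 to 5, 0 to 0, 1 to 6, 0 to 2, 1 to 3 and 0 to 2 at the 6 steps in the order RG-type to IP-type, RG-type to cycling, IP-type to newborn, newborn to upper, newborn to deep, and deep to upper layer-type; 0 to 3 and 0 to 3 in the tests of the 2 steps between WT and KO; 0 to 7, 0 to 5 and 0 to 4 against vascular and immune cells in IP-type, newborn neuron-type and upper layer-type cells, and 0 to 6, 0 to 4 and 0 to 4 in the KO minus WT tests of these. Over the alternatives the number of all genes called in WT against KO ran from 0 to 1362 in RG-type, 0 to 1187 in cycling, 0 to 323 in IP-type, 0 to 1704 in newborn neuron-type, 0 to 745 in upper layer-type and 0 to 162 in deep layer-type cells and 0 to 1394 over all kept cells. A pseudocount of 0.1 moved the median difference of all genes from -0.051 to -0.16 in RG-type and from -0.053 to -0.19 in newborn neuron-type cells.

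Direction changed for *Neurog2* in RG-type cells with doubled gates (0.37, limma adjusted p = 0.211), for *Hes5* in cycling cells with doubled gates (0.046), for *Neurod2* (-0.25), *Bhlhe22* (-0.15) and *Sox4* (-0.20) in cycling cells with all libraries, and from RG-type to IP-type cells with unthinned gates for *Eomes* (-0.056) and *Neurog2* (-0.40). Over KO4 and KO5 alone it changed for *Neurod1* from IP-type to newborn neuron-type cells (0.10), for *Eomes* from newborn neuron-type to upper layer-type cells (0.10) and for *Eomes* in newborn neuron-type against vascular and immune cells (-0.15). With the replicate block *Bhlhe22* (-0.17), *Neurod2* (-0.22) and *Sox4* (-0.23) turned in cycling cells and *Sox4* in RG-type cells (-0.045), and no gene of the cascade was called. In these classes that fit also leaves out WT3 and adds KO2 and the library labelled WT5. The change of libraries and the pairing cannot be told apart in it. Depth left *Neurog1* and *Nhlh1* below the filter on low values in each class, so neither was tested.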
